A study of Mus musculus with 9 samples.

Results

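Gene expression in the medial mantle zone was compared with that in the lateral mantle zone of the embryonic mouse hypothalamus, over all genes that reached 1 FPKM in 3 or more of the 6 libraries of these zones. FPKM count sequenced fragments by transcript length in kilobases and by the size of the library. The rule was met by 13411 of the 38195 gene symbols in the deposited table, and a gene present in a single zone meets it, so genes switched on in 1 zone are part of what was tested. Each zone had 3 libraries, made from total RNA of tissue cut out of coronal brain slices from embryos of the outbred CD-1 strain at E12.5. The labels name no engineered allele and no treatment for these libraries. A ventricular zone of the same stage, strain and preparation, also with 3 libraries, entered the fit only to estimate the spread and is otherwise given as a reference level. Whether separate embryos gave the 3 libraries of a zone is not in the labels, so p-values measure only how far these libraries spread, and some of that may be technical.

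The ventricular zone of the embryonic hypothalamus lines the third ventricle and is made of radial glia, the progenitors that divide at its surface and give rise to neurons. Newborn neurons leave the cell cycle, move outwards and collect in the mantle, and neurons born early tend to settle laterally while later ones stay closer to the midline. The medial mantle becomes nuclei such as the arcuate and ventromedial nuclei, and the lateral mantle contributes to the lateral hypothalamic area, whose neurons are known for long axons and for peptides that act on feeding and arousal. The study's title names Cenpj, a centriole protein, and its design text states a search for genes particular to regions of this tissue.

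The depth implied by the smallest steps between low values was 4412876 to 6954010 fragments in 5 of the 6 mantle libraries and 539218 in medial replicate 3, where 1 fragment on a 2 kb gene was worth 0.927 FPKM. Medial replicate 3 listed 23 genes at 0 that had at least 10 FPKM in each of the other 5 mantle libraries, against 1 in medial replicate 1 and 0 in the other 4. Ventricular replicate 3 was shallower still, at 261542 fragments, and its deviations widened the spread that all zones share in the fit. Values by library are given below in the order of replicates 1, 2 and 3, so that the last of each medial triplet is the shallow library. Differences are medial minus lateral on the log2(FPKM + 1) scale ± the standard error from limma, a linear model with moderated variances, and adjusted p-values are Benjamini-Hochberg values over all genes tested, called below 0.05. At low values that scale makes a change look smaller than it is.

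Of the 13411 genes, 621 passed the threshold (4.63%), 533 of them higher in the medial mantle zone (3.97%) and 88 lower (0.656%). A difference of at least 2-fold on the log2(FPKM + 1) scale was seen in 473 of the 533 and in 83 of the 88. The libraries of the zones did not overlap at all for 5517 genes (41.1%), with 3468 higher medially (25.9%) and 2049 lower (15.3%). The median difference over all genes was 0.10. It was -0.01 after quantile normalization and -0.03 after trimmed mean scaling, a shift of -0.11 and -0.13, so medians of gene lists are best read against that of all genes. The share of the called genes that were higher medially was 85.8% as deposited, 64.9% (582 of 897) after quantile normalization and 77.4% (415 of 536) after trimmed mean scaling. It was also lower in fits that called more genes, at 63.2% with the mantle zones alone and 75.2% without ventricular replicate 3. Counts of list members without ventricular replicate 2 or 3 stand beside 663 and 1377 genes higher and 249 and 455 lower over all genes in those fits.

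The number of calls depended on which libraries were in the fit. Without ventricular replicate 3 the fit called 1377 genes higher (10.3% of all) and 455 lower (3.39%), and with the 6 mantle libraries alone it called 1307 (9.75%) and 762 (5.68%). Both sets held all 533 and all 88 genes of the 9-library fit. Without medial replicate 3 it called 295 genes (2.20%), 266 higher (1.98%) and 29 lower (0.216%), of which 257 and 24 were among the 533 and the 88. The 7 libraries without both shallow ones, a choice made after seeing the data, gave 1276 higher (9.51%) and 383 lower (2.86%). Leaving out any other mantle library gave 194 to 294 higher and 14 to 24 lower genes, with fewer libraries in each fit. Of the 533 genes, 496 were annotated as protein coding, as were 72 of the 88. The median span of the gene on the genome was 18.6 kb for genes higher medially, 34.5 kb for genes lower and 22.4 kb for genes not past the threshold, from GENCODE M21 annotation.

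**Figure D1:**
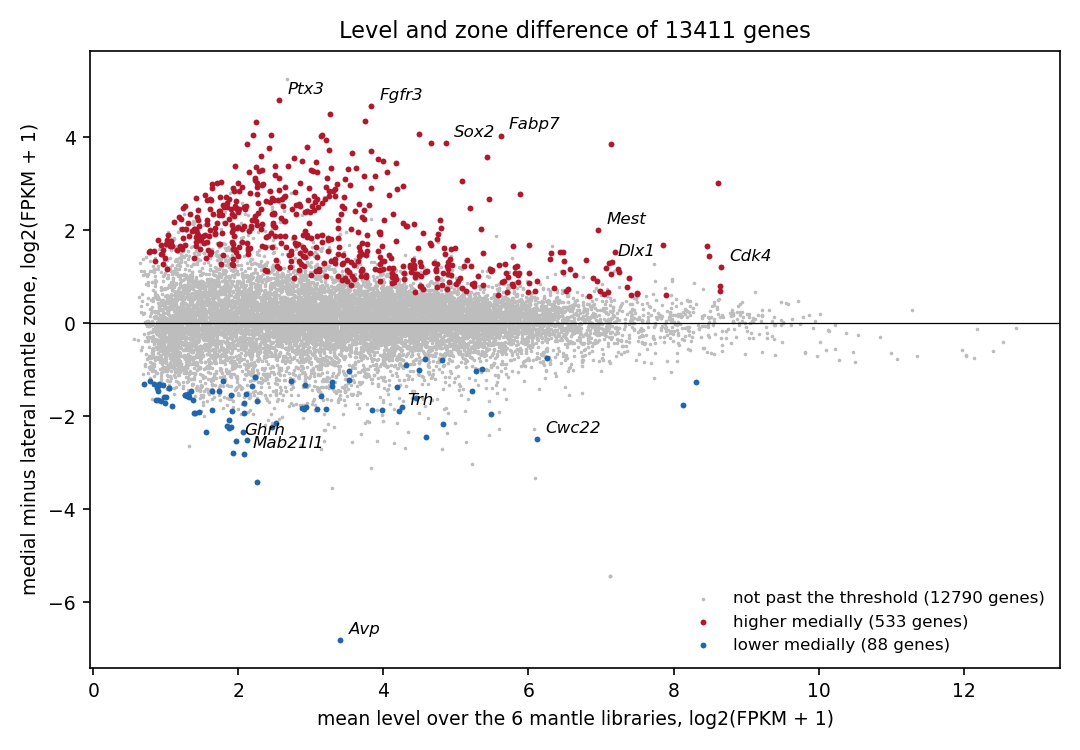
Difference between the zones (medial minus lateral, log2(FPKM + 1), y axis) against mean level over the 6 mantle libraries (x axis, log2(FPKM + 1)) for each of the 13411 genes, 1 point per gene. The 533 genes higher medially spread over all levels, and the 88 lower ones lie mostly at low levels.

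Several of the genes with the highest medial excess, among them Hes5, Nr2e1, Fabp7 and Sox1, are known from neural progenitors. By the naming rule, the 12 highest were Ptx3, Fgfr3, Hes5, Mfng, Dbx1, Tead2, Robo3, Gpr50, Nr2e1, Phgdh, Fabp7 and Sox1, and each of them passed under all 21 alternative settings. Ptx3, a secreted pattern recognition protein (chromosome 3, 66219910 to 66225805, plus strand), was 28.6, 25.7 and 36.9 FPKM medially and 0, 0.394 and 0 FPKM laterally, a difference of 4.8 ± 0.35 (adjusted p = 0.000378). Fgfr3, an FGF receptor of neural progenitors (chromosome 5, 33721674 to 33737068, plus strand), was 74.7, 63.7 and 74 FPKM medially and 2.44, 2.43 and 0.92 FPKM laterally (4.66 ± 0.4, adjusted p = 0.000738). In both genes every medial library lay far above every lateral one. Dbx1, a homeodomain factor of a progenitor domain (chromosome 7, 49631499 to 49636849, minus strand), was 23, 21.6 and 16.2 FPKM medially and 0, 0.0694 and 0.109 FPKM laterally (4.32 ± 0.31, adjusted p = 0.000366). Its level in the ventricular libraries was 124, 74 and 181 FPKM, above every medial library. Tead2, a transcription factor of the Hippo pathway, was 74.8, 81.8 and 126 medially and 4.36, 2.8 and 7.18 laterally (4.07 ± 0.51, adjusted p = 0.00324). Gpr50, an orphan receptor related to melatonin receptors, was 14.8, 13.5 and 47.2 medially and 0.285, 0.801 and 0.0722 laterally (4.04 ± 0.5, adjusted p = 0.00314), with its highest value in the shallow library. Phgdh, the first enzyme of serine synthesis, was 43.1, 31.9 and 30.7 medially and 0.80, 1.2 and 1.64 laterally (4.03 ± 0.31, adjusted p = 0.000475).

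The genes with the largest lateral excess included 3 neuropeptide precursors, Avp, Ghrh and Nts. The 12 lowest were Avp, Ppapdc1a, Mab21l1, Susd1, Ghrh, Grm5, Cwc22, RP23-356G2.1, Hs3st4, Nts, Il1f9 and Ak5. Avp, Ppapdc1a and Mab21l1 passed under all 21 alternatives. Mab21l1 (chromosome 3, 55782510 to 55785001, plus strand), a gene of the male-abnormal 21 family, was 0.465, 0.665 and 0.666 FPKM medially and 12, 10.4 and 8.6 FPKM laterally (-2.82 ± 0.32, adjusted p = 0.00248). Its 3 lateral libraries lay close together and far above all medial ones, and its ventricular values were 0.248, 1.01 and 0 FPKM. Ppapdc1a, a lipid phosphatase gene, was 0.591, 0.952 and 0 medially and 26.9, 8.44 and 13.5 laterally (-3.42 ± 0.49, adjusted p = 0.00578). Susd1, a gene of a protein with sushi domains, was 0.75, 0.692 and 0 medially and 14.4, 6.14 and 8.2 laterally (-2.8 ± 0.39, adjusted p = 0.00489) and did not pass with a pseudocount of 0.1 (0.0523). Medial values of these genes are near 1 FPKM or below, which is about 1 fragment on a 2 kb gene in the shallow library. Ak5, an adenylate kinase of neurons, was 1.01, 1.43 and 2.37 medially and 18.6, 7.18 and 9.71 laterally (-2.24 ± 0.39, adjusted p = 0.0126) and did not pass without medial replicate 1 or 2, or without lateral replicate 1 (adjusted p = 0.0551 to 0.0584) or under 2 of the 12 other alternatives (0.0511 to 0.0924). Hs3st4, a heparan sulfate sulfotransferase, was 1.87, 1.2 and 0 medially and 6.58, 13.9 and 6.38 laterally (-2.35 ± 0.53, adjusted p = 0.0388) and did not pass without any 1 of the 6 mantle libraries, or without ventricular replicate 1 (adjusted p = 0.056 to 0.174) or under 3 of the 11 other alternatives (0.0667 to 0.174). Il1f9 was 1.96, 0.589 and 0 medially and 5.93, 8.35 and 6.95 laterally (-2.26 ± 0.46, adjusted p = 0.0254) and did not pass without medial replicate 2 or 3, or without any 1 lateral library (adjusted p = 0.0839 to 0.12) or under 2 of the 11 other alternatives (0.0584 to 0.147). RP23-356G2.1, a gene known only by its clone name, was 13.4, 6.2 and 9.47 medially and 111, 31.8 and 48.5 laterally (-2.46 ± 0.53, adjusted p = 0.0326) and did not pass without any 1 medial library, or without lateral replicate 1 or 3 (adjusted p = 0.0579 to 0.117) or with no filter on low values (0.0701).

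Cwc22, a splicing factor gene on chromosome 2 (77881159 to 77946375, minus strand), was expressed in every library and differed by -2.49 ± 0.44 (adjusted p = 0.0126). It was 43, 32.2 and 16.1 FPKM medially and 126, 198 and 174 FPKM laterally, and every lateral library lay far above every medial one. Its ventricular values were 43.4, 15.8 and 15.7 FPKM. The call ended without lateral replicate 2 or 3 (adjusted p = 0.0508 to 0.0691). Of 5 genes tested within 1 Mb of it, Cwc22 included, it was the only one past the threshold. On the same chromosome, 7 predicted genes that the naming rule skips (Gm13691 and Gm13693 to Gm13698) were also lower medially, and they are named here because of their values. They have 1 common length of 2493 bases and lie in a row between 83955693 and 83993045. Their values were alike within each library, at 0.843 to 1.03 FPKM in medial replicate 1, 0.499 to 0.578 in medial replicate 2, 0 in medial replicate 3, 2.61 to 2.84 in lateral replicate 1, 3.38 to 3.87 in lateral replicate 2 and 3.28 to 3.46 in lateral replicate 3. How the authors' counting divided fragments among such copies is not known, so they are uncertain as separate genes, and all 7 calls were lost without any 1 of the 6 mantle libraries.

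**Figure D2:**
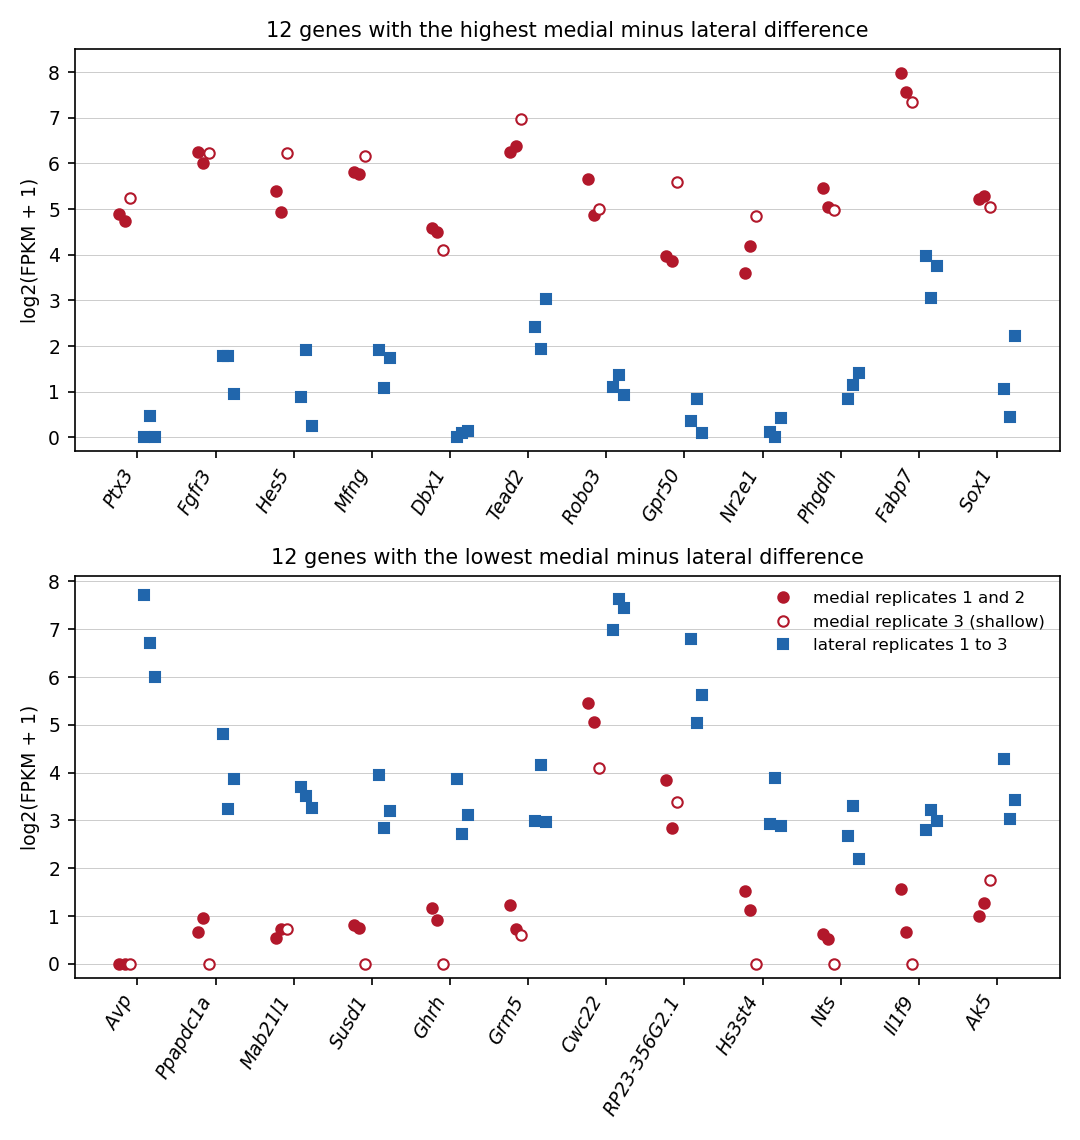
Level, log2(FPKM + 1), of the 12 genes with the highest (upper panel) and the 12 with the lowest (lower panel) medial minus lateral difference, 1 point per library. Filled circles are medial replicates 1 and 2, open circles the shallow medial replicate 3 and squares the 3 lateral replicates. Circles and squares do not overlap for any of the 24 genes, as the naming rule required.

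Radial glia genes had the highest median difference of the 40 lists with at least 5 tested members. Of 23 radial glia and progenitor genes tested, 20 were higher medially and 0 lower, against 3.97% and 0.656% of all genes, and the median difference was 3.02. The count was 16 to 22 when single libraries were left out and 22 in the 7 deep libraries. Sox2, the transcription factor that maintains neural progenitors, was 112, 105 and 115 FPKM medially and 5.43, 2.8 and 17 FPKM laterally (3.87 ± 0.53, adjusted p = 0.00471). Its relative Sox1 was 36.3, 38.1 and 32.1 medially and 1.09, 0.371 and 3.64 laterally (3.94 ± 0.43, adjusted p = 0.00224). Fabp7, a fatty acid binding protein that marks radial glia, was 251, 188 and 163 medially and 14.8, 7.35 and 12.6 laterally (4.03 ± 0.33, adjusted p = 0.000631). Nr2e1, the orphan nuclear receptor Tlx of neural stem cells, was 11.2, 17.2 and 28 medially and 0.0885, 0 and 0.336 laterally (4.04 ± 0.5, adjusted p = 0.00324). All 3 medial libraries were high in each of these genes and no lateral library reached them. The summed level of the list was 1488, 1268 and 1355 FPKM medially, 159, 118 and 156 laterally and 2292, 1234 and 2564 in the ventricular zone. The medial sums lay above ventricular replicate 2 and below ventricular replicates 1 and 3, so they fell inside the ventricular range through that 1 library. Its sum of pan-neuronal genes, 2949 FPKM, was also unlike the 1371 and 1076 FPKM of ventricular replicates 1 and 3. In bulk tissue, more cells of a type and more RNA per cell cannot be told apart, and whether pieces of ventricular zone were cut with the medial tissue was not tested. Pax6, a paired box factor of several forebrain domains, was 37, 9.9 and 19.9 medially and 46.1, 34.6 and 5.61 laterally and overlapped between the zones (-0.12 ± 0.7, adjusted p = 0.946). Id1, an inhibitor of bHLH factors, was 6.4, 10.5 and 6.76 medially and 3.07, 1.28 and 0.551 laterally and had an adjusted p of 0.175, or 0.0157 without ventricular replicate 3.

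All 24 mitosis genes tested were higher medially (3.97% of all genes), with a median difference of 2.65. For all 24 the medial libraries lay above the lateral ones (25.9% of all genes). The count called higher ranged from 13 to 24 when single libraries were left out. It was 13 without lateral replicate 2, 15 without medial replicate 2 or 3, 16 without lateral replicate 1 and 18 or more without each of the others. The mean level of the list above the lateral mean was 2.26, 2.63 and 3.31 in the medial libraries and 0.10, -0.27 and 0.17 in the lateral ones, so the shallow medial library was the highest. Without it the median difference was 2.37. The 4 members with the largest change were Ccnb1, Top2a, Ube2c and Cdc20, which passed under all 21 alternatives. Genes expressed late in the cell cycle often carry CCAAT boxes, bound by the factor NF-Y, and a cell cycle homology region (CHR), bound by the DREAM and MuvB complexes. The 250 bases before the start of these 4 genes are printed below from RefSeq promoter sequences (GRCm38.p6), 5′ to 3′ on the gene's strand, because these members moved together. Capitals mark CCAAT and its reverse complement ATTGG, and the CHR as TTTGAA or TTCGAA with their reverse complements TTCAAA and TTCGAA.
Ccnb1 (chr13:100786487-100786736, minus strand): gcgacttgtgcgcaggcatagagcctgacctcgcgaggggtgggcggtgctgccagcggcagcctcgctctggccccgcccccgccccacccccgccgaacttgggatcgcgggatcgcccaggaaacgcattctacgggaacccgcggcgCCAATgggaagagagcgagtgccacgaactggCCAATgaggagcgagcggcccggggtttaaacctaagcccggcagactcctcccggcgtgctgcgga
Top2a (chr11:99024190-99024439, minus strand): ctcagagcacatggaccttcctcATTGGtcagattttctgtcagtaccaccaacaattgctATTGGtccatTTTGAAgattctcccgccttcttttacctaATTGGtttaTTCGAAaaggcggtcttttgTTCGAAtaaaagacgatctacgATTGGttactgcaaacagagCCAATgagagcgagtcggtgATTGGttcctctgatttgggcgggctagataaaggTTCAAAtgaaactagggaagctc
Ube2c (chr2:164769679-164769928, plus strand): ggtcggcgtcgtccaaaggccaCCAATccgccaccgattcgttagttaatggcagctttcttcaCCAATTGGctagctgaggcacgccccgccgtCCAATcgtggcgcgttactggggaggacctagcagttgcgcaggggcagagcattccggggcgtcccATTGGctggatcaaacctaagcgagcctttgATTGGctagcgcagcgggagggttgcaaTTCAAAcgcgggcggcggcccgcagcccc
Cdc20 (chr4:118437344-118437593, minus strand): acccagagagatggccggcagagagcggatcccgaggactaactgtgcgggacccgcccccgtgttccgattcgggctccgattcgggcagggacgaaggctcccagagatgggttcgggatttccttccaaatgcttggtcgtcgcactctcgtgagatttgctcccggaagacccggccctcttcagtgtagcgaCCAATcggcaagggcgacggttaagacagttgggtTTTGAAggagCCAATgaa

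CCAAT letters stood in each of these 4 windows and CHR letters in 3 of them, not in that of Ccnb1. Of the 24 mitosis genes, 21 had a promoter of full length in the reference table, and 17 of these (81.0%) held CCAAT on either strand, 9 (42.9%) the CHR and 8 (38.1%) both. Among all 32851 promoters the shares were 33.9%, 17.2% and 6.02% for the same 250 bases. With the 50 bases after the start included, 16 of the 21 (76.2%) held the CHR and 15 (71.4%) both, against 19.2% and 7.52% of all promoters, and the CCAAT count was again 17. These matches describe the letters and say nothing of binding in these zones. Ccnb1, the cyclin that drives entry into mitosis, was 20.3, 22.3 and 46.2 FPKM medially and 2.06, 0.468 and 0.994 FPKM laterally (3.78 ± 0.53, adjusted p = 0.00531). Top2a, the topoisomerase of dividing cells, was 27.1, 42.3 and 61.1 medially and 1.7, 1.52 and 4.53 laterally (3.66 ± 0.51, adjusted p = 0.00518). Ube2c and Cdc20 work together in the anaphase promoting complex. Ube2c was 32.5, 50.9 and 77.8 medially and 4.86, 2.1 and 3.96 laterally (3.52 ± 0.4, adjusted p = 0.00246) and Cdc20 was 22.4, 28.3 and 42.2 medially and 2.63, 1.15 and 2.71 laterally (3.33 ± 0.45, adjusted p = 0.00477). Cdk1, the kinase partner of cyclin B, was 33.9, 36.6 and 46.6 medially and 2.33, 2.55 and 6.32 laterally (3.17 ± 0.51, adjusted p = 0.00897). In each of these 5 genes the lateral libraries held at least 1 value below 3 FPKM and the medial ones none below 20 FPKM. Cenpf, a kinetochore protein, was 6.4, 10.03 and 17.1 medially and 0.703, 0.134 and 0.438 laterally (3.02 ± 0.56, adjusted p = 0.0159) and did not pass without medial replicate 2 or 3, or without any 1 lateral library (adjusted p = 0.0545 to 0.0798).

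Genes of DNA replication that passed were all higher medially as well. Of 24 tested, 10 were higher (3.97% of all genes) and 0 lower, the median difference was 1.5, and the medial libraries lay above the lateral ones for 22 (25.9% of all genes). The count was 4 to 20 when single libraries were left out, with 20 without ventricular replicate 3 (10.3% of all genes in that fit), 4 without lateral replicate 2 and 6 without medial replicate 2 or 3. Rrm2, a subunit of ribonucleotide reductase, was 18.4, 27.9 and 42.9 FPKM medially and 3.28, 1.91 and 2.9 FPKM laterally (2.99 ± 0.35, adjusted p = 0.00258). Uhrf1, which guides maintenance methylation of DNA, was 14.8, 21.4 and 45.3 medially and 1.8, 2.53 and 2.76 laterally (2.93 ± 0.48, adjusted p = 0.00965). Mcm2, a subunit of the replicative helicase, was 21.7, 26.8 and 30.9 medially and 3.19, 1.46 and 3.93 laterally (2.88 ± 0.38, adjusted p = 0.00409). Medial replicate 3 was the highest mantle library for all 3. Mcm3, another subunit, was 8.83, 14.7 and 22.2 medially and 1.56, 0.708 and 2.23 laterally (2.66 ± 0.44, adjusted p = 0.00983) and did not pass without lateral replicate 2 (adjusted p = 0.0521). E2f1, a transcription factor of the entry into S phase, was 6.14, 9.13 and 10.8 medially and 0.807, 0.624 and 0.736 laterally (2.46 ± 0.42, adjusted p = 0.0117) and did not pass without medial replicate 2 or 3, or without lateral replicate 2 (adjusted p = 0.054 to 0.0594). Tk1, thymidine kinase, was 5.21, 13.7 and 25.2 medially and 2.07, 1.52 and 2.27 laterally (2.19 ± 0.49, adjusted p = 0.0359) and did not pass without medial replicate 2 or 3, any 1 lateral library, or without ventricular replicate 1 (adjusted p = 0.0623 to 0.15) or with no filter on low values (0.0754). The subunit Mcm7, at 58.8, 68.4 and 58.5 medially and 37, 34.8 and 36.4 laterally, had no overlap between zones and did not pass (0.76 ± 0.27, adjusted p = 0.149). It did so without ventricular replicate 3 (adjusted p = 0.00528).

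Some genes that take cells out of the cycle were also higher medially. Of 16 cyclin D and cell cycle exit genes tested, 6 were higher (3.97% of all genes) and 0 lower (0.656%), with a median of 0.95. The count was 4 to 9 when single libraries were left out. It was lowest without medial replicate 3 or lateral replicate 1 or 2, and highest without ventricular replicate 3. Gadd45g, induced in newly formed neurons, was 48, 43 and 55.1 FPKM medially and 4.59, 5.63 and 7.06 FPKM laterally (2.89 ± 0.34, adjusted p = 0.00287). Btg2, a marker of progenitors making their last division, was 21, 19.9 and 35.1 medially and 2.3, 2.38 and 3.01 laterally (2.84 ± 0.33, adjusted p = 0.00263). The inhibitor Cdkn1c, p57, was abundant at 208, 164 and 159 medially and 62, 62.8 and 82.5 laterally (1.35 ± 0.18, adjusted p = 0.00401). Ccnd3, a D-type cyclin, was 24.3, 23.8 and 26.7 medially and 6.83, 7.13 and 10.1 laterally (1.54 ± 0.2, adjusted p = 0.00409). These 4 passed under all 21 alternatives. Ccnd1, the cyclin D of progenitors, was 41.7, 52.6 and 90.02 medially and 10.7, 10.1 and 15.1 laterally (2.21 ± 0.39, adjusted p = 0.0132) and did not pass without medial replicate 2 or 3, or without lateral replicate 1 or 2 (adjusted p = 0.0507 to 0.0705). Its kinase Cdk4 was 631, 573 and 635 medially and 270.3, 227 and 305 laterally (1.2 ± 0.21, adjusted p = 0.0119) and did not pass without medial replicate 1 or 3, or without lateral replicate 1 or 2 (adjusted p = 0.0503 to 0.068). Cdk5r1, the activator of the neuronal kinase Cdk5, was 141, 133 and 109.6 medially and 195, 167 and 155 laterally, lower in each medial library than in each lateral one without passing (-0.43 ± 0.31, adjusted p = 0.472). Rb1, the retinoblastoma protein gene, overlapped between zones at 21.4, 18.9 and 40.7 medially and 21, 18.7 and 15.5 laterally.

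Centriole genes had a smaller median difference than the mitosis genes. Of 23 centriole and microcephaly genes tested, 3 were higher (3.97% of all genes) and 0 lower, with a median of 0.66, and 18 had their medial libraries above the lateral ones (25.9% of all genes). The count was 1 to 6 when single libraries were left out: 6 without ventricular replicate 3, 1 without lateral replicate 1 or 2 or any 1 medial library, and 2 without lateral replicate 3 or ventricular replicate 1. Cenpj itself (chromosome 14, 56526761 to 56575425, minus strand) was 3.59, 3.41 and 2.9 FPKM medially and 1.41, 1.94 and 1.6 FPKM laterally, with no overlap and a difference of 0.7 ± 0.26 that did not pass (adjusted p = 0.163). Its ventricular values were 6.57, 4.67 and 6.83 FPKM. Over the alternatives its adjusted p ran from 0.00609 to 0.389 and passed in 1 of 20, with array weights. Nde1, a dynein partner that the orientation of progenitor division needs, was 18.5, 22.1 and 39.5 medially and 1.42, 1.24 and 2.84 laterally (3.26 ± 0.47, adjusted p = 0.00611) and passed under all alternatives. Aspm, a spindle pole protein, was 2.42, 3.4 and 8.97 medially and 0.54, 0.192 and 0.216 laterally (2.02 ± 0.48, adjusted p = 0.0462) and did not pass without any 1 of the 6 mantle libraries, or without ventricular replicate 1 (adjusted p = 0.058 to 0.176) or under 2 of the 11 other alternatives (0.0517 to 0.0995). Spice1, a spindle and centriole protein, was 10.9, 13.9 and 14.2 medially and 4.17, 2.98 and 5.79 laterally (1.42 ± 0.3, adjusted p = 0.0285) and did not pass without any 1 medial library, or without lateral replicate 1 or 2 (adjusted p = 0.065 to 0.131) or under 2 of the 12 other alternatives (0.051 to 0.053). Cdk5rap2, a pericentriolar protein and the most abundant member not past the threshold, was higher in each medial library without passing, at 62.5, 52.5 and 57.4 medially and 50.6, 40.8 and 49.4 laterally (0.29 ± 0.15, adjusted p = 0.301).

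Some genes of neuronal commitment were higher in the medial zone. Of 20 proneural and early neuronal genes tested, 10 were higher (3.97% of all genes) and 0 lower, with a median of 1.49. The count was 14 without ventricular replicate 3, 12 without ventricular replicate 2 and 5 to 8 when any 1 other library was left out. Nhlh1, a bHLH factor of newborn neurons, was 15.6, 10.7 and 12.1 FPKM medially and 0.24, 0.232 and 0.913 FPKM laterally (3.25 ± 0.39, adjusted p = 0.00293). St18, a zinc finger transcription factor of developing neurons, was 38.8, 38 and 84.1 medially and 3.26, 5.29 and 4.75 laterally (3.25 ± 0.47, adjusted p = 0.00578). Olig2, a bHLH factor of ventral progenitors and of oligodendrocyte precursors, was 20.1, 7.02 and 16.8 medially and 1.82, 0.47 and 1.02 laterally (2.83 ± 0.38, adjusted p = 0.00471). These 3 passed under all alternatives and showed no overlap. Btbd17 was 35.3, 25.5 and 22.6 medially and 3.71, 3.15 and 6.59 laterally (2.42 ± 0.47, adjusted p = 0.0194) and did not pass without any 1 medial library, or without lateral replicate 1 or 2 (adjusted p = 0.0586 to 0.0954). Hes6, which opposes other Hes factors, was 129, 135 and 122 medially and 53.7, 55 and 67.5 laterally with no overlap and an adjusted p of 0.0591, and it passed without ventricular replicate 2 or 3 (adjusted p = 0.00268 to 0.0229). The SoxC factors of immature neurons did not pass: Sox4 was 214, 195 and 173 medially and 132, 182 and 166 laterally (0.29 ± 0.16, adjusted p = 0.347) and Sox11 164, 190.5 and 149.5 medially and 122, 95.4 and 132 laterally (0.53 ± 0.17, adjusted p = 0.115).

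Notch signalling keeps progenitors from differentiating: neurons in the making present Delta ligands, fringe enzymes tune the receptors, and the receptors switch on Hes genes in their neighbours. Of 21 Notch genes tested, 13 were higher medially (3.97% of all genes) and 0 lower (0.656%), with a median of 1.68. The count was 8 to 14 when single libraries were left out, with 8 or 9 without any 1 of the 6 mantle libraries. Among ligands, Dll3 was 34.5, 30.2 and 53.2 FPKM medially and 2.68, 1.25 and 6.13 FPKM laterally (3.33 ± 0.47, adjusted p = 0.00571). Jag2, expressed by neurons, was the reverse at 16.9, 16.6 and 5.37 medially and 30.9, 35.2 and 35.4 laterally, lower in every medial library without passing (-1.46 ± 0.66, adjusted p = 0.241). Among receptors, Notch1 was 35.9, 36.5 and 32.9 medially and 2.57, 0.829 and 6.38 laterally (3.31 ± 0.54, adjusted p = 0.00905) and Notch3 was 19, 20.02 and 21.9 medially and 2.08, 2.18 and 2.87 laterally (2.66 ± 0.26, adjusted p = 0.00142). The fringe genes split. Mfng was 55.3, 53.8 and 70.4 medially and 2.77, 1.1 and 2.35 laterally (4.34 ± 0.28, adjusted p = 0.000294) and Lfng 20.03, 17.2 and 18.9 medially and 1.04, 0 and 0.496 laterally (3.76 ± 0.37, adjusted p = 0.00144), while Rfng overlapped at 34.8, 29.1 and 16.8 medially and 29.96, 48.4 and 37.4 laterally (-0.54 ± 0.42, adjusted p = 0.509). Among targets, Hes5 was 41, 29.5 and 74.3 medially and 0.841, 2.77 and 0.19 laterally (4.51 ± 0.69, adjusted p = 0.00769) and Nrarp, a feedback inhibitor, 40.4, 42.5 and 46.2 medially and 5.22, 2.77 and 4.1 laterally (3.16 ± 0.33, adjusted p = 0.00193). Numbl, a regulator of Notch, did not pass at 53.9, 55.2 and 54.9 medially and 47.6, 43.1 and 53.8 laterally (0.19 ± 0.23, adjusted p = 0.692).

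Components of the Hedgehog pathway, which patterns the ventral forebrain, were likewise called in the medial direction alone. Of 13 tested, 4 were higher (3.97% of all genes) and 0 lower (0.656%), with a median of 1.69. The count was 3 or 4 without any 1 of the mantle libraries or ventricular replicate 1, 7 without ventricular replicate 2 and 10 without ventricular replicate 3. The ligand Shh was 17.1, 17.7 and 7.57 FPKM medially and 1.91, 1.53 and 1.66 FPKM laterally (2.4 ± 0.65, adjusted p = 0.0726) and passed without ventricular replicate 2 or 3 (adjusted p = 0.00726 to 0.0202). The receptor Ptch1, itself a target, was 45, 41.2 and 48.3 medially and 11.5, 10.9 and 10.5 laterally (1.94 ± 0.22, adjusted p = 0.00248). The signal transducer Smo was 26.1, 24.6 and 33.2 medially and 5.12, 3.76 and 6.03 laterally (2.28 ± 0.31, adjusted p = 0.00428). Gli1, the target that reports pathway activity, was 5.5, 5.08 and 9.94 medially and 0.316, 0.0762 and 0 laterally (2.75 ± 0.31, adjusted p = 0.00244). Gli3, the main repressor, was 2.18, 2.17 and 3.7 medially and 0.149, 0.183 and 0.0261 laterally (1.69 ± 0.33, adjusted p = 0.0202) and did not pass without any 1 of the 6 mantle libraries (adjusted p = 0.056 to 0.0832). Gli1 passed in all 20 alternatives that tested it, and Ptch1 and Smo in all 21.

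The Wnt genes that passed were all higher medially. Of 21 tested, 10 were higher (3.97% of all genes) and 0 lower (0.656%), with a median of 1.34. The count was 15 without ventricular replicate 3, 5 without lateral replicate 2, 6 without medial replicate 2 or lateral replicate 1 and 7 to 11 without each of the others. The ligand Wnt7b was 49.5, 37.8 and 68.3 FPKM medially and 5.13, 1.36 and 3.19 FPKM laterally (3.71 ± 0.45, adjusted p = 0.00311). The receptors Fzd2 and Fzd7 were 15.7, 14.9 and 13.6 medially and 0.319, 0.308 and 1.33 laterally (3.3 ± 0.32, adjusted p = 0.00144) and 7.46, 5.76 and 12.3 medially and 0.834, 0.259 and 0.158 laterally (2.72 ± 0.39, adjusted p = 0.00572). The nuclear partners of beta-catenin Tcf7l1 and Lef1 were 7.61, 5.6 and 10.2 medially and 0.556, 0.0464 and 0.365 laterally (2.72 ± 0.36, adjusted p = 0.00413) and 10.2, 10.4 and 6.52 medially and 1.32, 0.70 and 1.38 laterally (2.23 ± 0.29, adjusted p = 0.00394). Each of these 5 passed in every alternative that tested it. The secreted antagonist Sfrp2 was 9.3, 7.82 and 29.2 medially and 1.58, 0.946 and 1.26 laterally (2.64 ± 0.5, adjusted p = 0.0187) and did not pass without any 1 lateral library (adjusted p = 0.0627 to 0.0861). The co-receptor Lrp6 was 9.35, 10.3 and 21.8 medially and 6.4, 7.83 and 6.91 laterally (0.79 ± 0.32, adjusted p = 0.194), with the shallow library alone far above the rest.

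Of 17 FGF genes, 2 were higher (3.97% of all genes) and 0 lower, with a median of 0.43. They were Fgfr3, given above, and Fgf15, a ligand of forebrain progenitors, at 4.36, 8.13 and 12.7 FPKM medially and 0.252, 0.0814 and 0 FPKM laterally (2.98 ± 0.46, adjusted p = 0.00743). Fgfr1 was 38.1, 37.8 and 29.8 medially and 17, 17.2 and 25.2 laterally with no overlap (0.82 ± 0.22, adjusted p = 0.0678) and passed without ventricular replicate 2 or 3 (adjusted p = 0.0298 to 0.0458). Fgf13, a member that stays inside neurons, was lower in each medial library at 36.2, 31.6 and 20.9 medially and 47.6, 41.9 and 41.9 laterally without passing (-0.58 ± 0.48, adjusted p = 0.528). Of 13 BMP and Id genes, 1 was higher (3.97% of all genes) and 0 lower, with a median of 0.15. That member was Id3, a target of BMP signals, at 21.2, 20.6 and 17.2 medially and 2.49, 0.602 and 1.9 laterally (3.02 ± 0.46, adjusted p = 0.00724). Id4, a relative, overlapped at 66.4, 58.8 and 63.9 medially and 95.9, 57.6 and 77.4 laterally (-0.26 ± 0.19, adjusted p = 0.491). The FGF count was 4 and the BMP and Id count 3 without ventricular replicate 3.

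**Figure D3:**
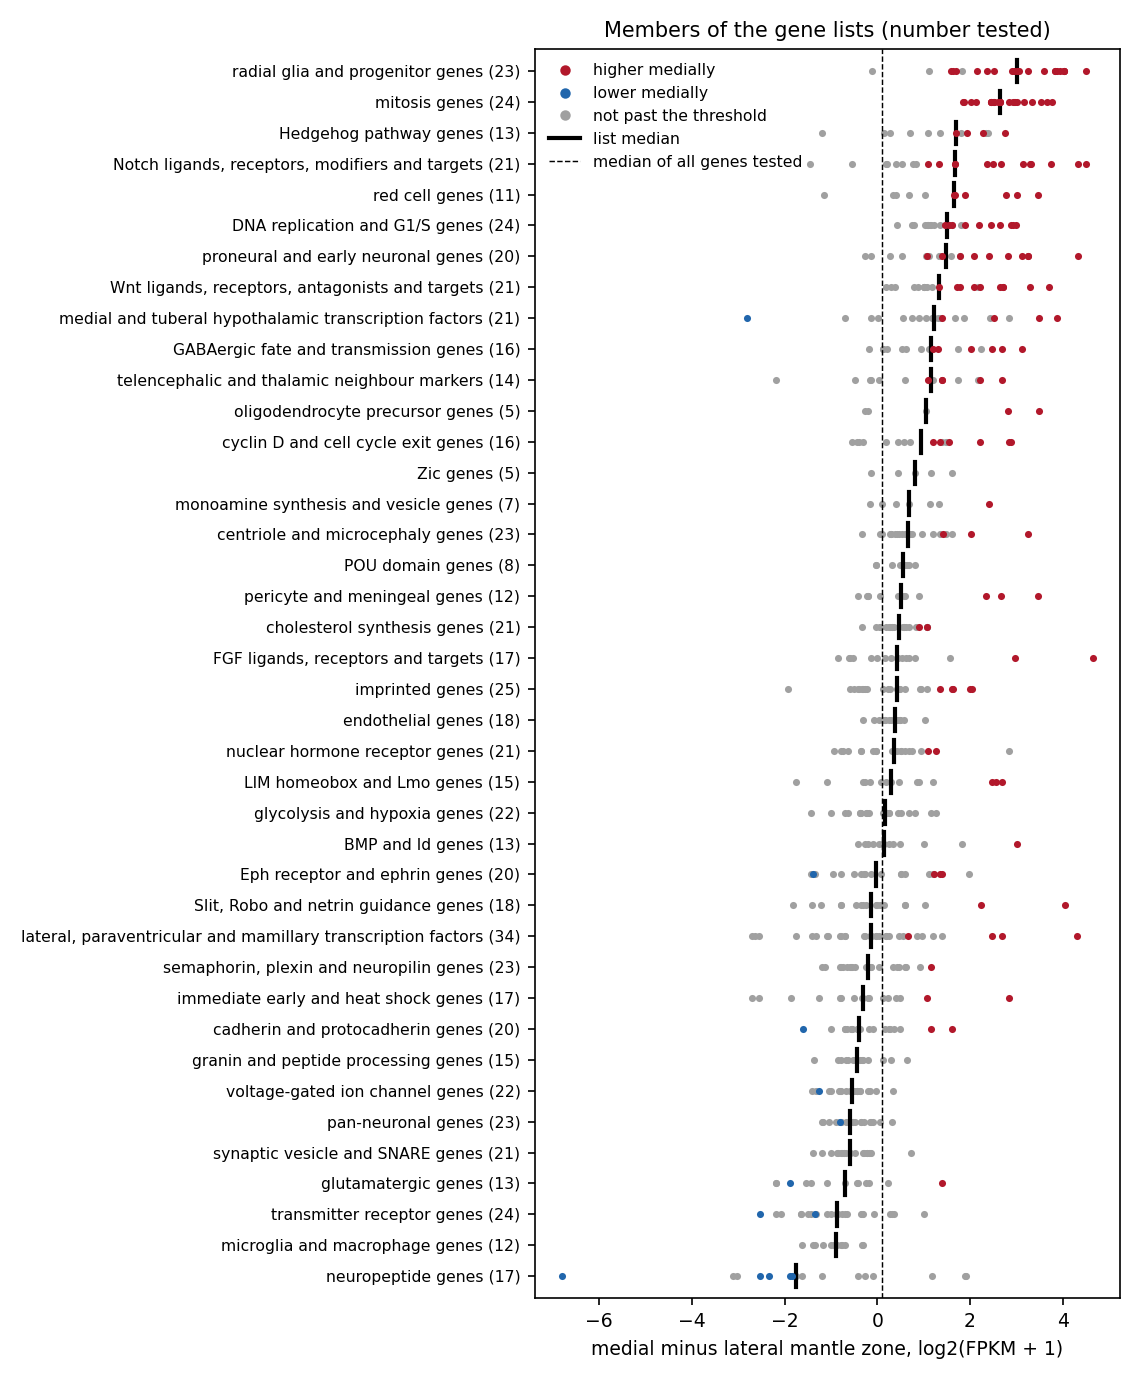
Medial minus lateral difference on the log2(FPKM + 1) scale (x axis) of each tested member of the 40 lists with at least 5 tested members, ordered by list median, with the number tested in brackets. Points are genes, coloured by call, thick bars are list medians and the dashed line is the median of all genes, 0.10. Progenitor and mitosis genes lie furthest to the right and neuropeptide genes furthest to the left.

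Among the lists of regional transcription factors, 1 member was lower medially in the 9-library fit, Mab21l1. Of 21 genes listed for the medial and tuberal hypothalamus and tested, 4 were higher medially and 1 lower, with a median of 1.22. These counts stand beside 3.97% higher and 0.656% lower over all genes. Without ventricular replicate 3, 9 were higher, and without medial replicate 2 or lateral replicate 1, 2 were. Rax, a factor of hypothalamic progenitors and tanycytes, was 5.31, 5.8 and 3.46 FPKM medially, was listed at 0 in all 3 lateral libraries and passed (adjusted p = 0.0057). Nkx2-2, which lines the boundary of basal and alar territories, was 54, 49.1 and 54 FPKM medially and 2.93, 5.95 and 2.9 FPKM laterally (3.49 ± 0.36, adjusted p = 0.00171). Its ventricular values, 26.9, 10.4 and 23.9 FPKM, lay below every medial library. Vax1, a factor of the anterior ventral midline, was 86.5, 97.3 and 104 medially and 3.84, 1.56 and 21.9 laterally (3.88 ± 0.68, adjusted p = 0.013), with lateral replicate 3 well above the other lateral libraries, and did not pass without medial replicate 2 or 3, or without lateral replicate 1 (adjusted p = 0.0539 to 0.0645). The lower member was Mab21l1, given above. Nkx2-1, the defining factor of the tuberal hypothalamus, was present in all 6 libraries at 146, 119 and 40.2 medially and 11.7, 35.9 and 30.3 laterally (1.87 ± 0.65, adjusted p = 0.14) and passed without ventricular replicate 3 (adjusted p = 0.0466). Isl1, a LIM factor of arcuate neurons, was 122, 73.2 and 69.7 medially and 45.6, 47.8 and 43 laterally with no overlap (0.9 ± 0.38, adjusted p = 0.21) and passed without ventricular replicate 3 (adjusted p = 0.0425).

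Of 34 factors of the lateral, paraventricular and mamillary hypothalamus tested, 4 were higher and 0 lower medially, against 3.97% and 0.656% of all genes, with a median of -0.14. Without ventricular replicate 3, 3 were lower, with 2 lower without ventricular replicate 2 and 1 without lateral replicate 3. Among the higher members were Dbx1, Lhx6 and Lhx8. Lhx6 and Lhx8 are LIM homeobox factors of ventral forebrain neurons. Lhx6 was 14.4, 12.1 and 12.9 FPKM medially and 1.0, 0.797 and 1.86 FPKM laterally (2.7 ± 0.27, adjusted p = 0.00171), with ventricular values of 4.45, 3.1 and 3.47 FPKM. Lhx8 was 6.69, 9.75 and 8.43 medially and 1.38, 0 and 0.903 laterally (2.48 ± 0.39, adjusted p = 0.00843) and did not pass with a pseudocount of 0.1 (0.101), with ventricular values of 0.815, 0.151 and 0 FPKM. Both were thus highest in the medial mantle, above the other zones in every library. Otp, which specifies neuroendocrine neurons, overlapped at 232, 185 and 370.2 medially and 393, 116 and 467 laterally (-0.14 ± 0.52, adjusted p = 0.907), with a low value in lateral replicate 2. Arnt2, a bHLH-PAS factor of the same neurons, was 77.9, 69.2 and 66.5 medially and 135, 111 and 101 laterally, lower in each medial library (-0.69 ± 0.18, adjusted p = 0.0618), and passed without ventricular replicate 2 or 3 (adjusted p = 0.0256 to 0.0323).

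Several regional factors varied widely between libraries of 1 zone, with lateral replicates 2 and 3 at opposite ends. Lmx1a, a LIM homeodomain factor, was 2.97, 10.3 and 0 FPKM medially and 5.86, 27.1 and 1.25 FPKM laterally, highest in lateral replicate 2 and listed at 0 in medial replicate 3 (-1.09 ± 1.05, adjusted p = 0.599). Ntng2, a netrin-G ligand, was 12.2, 22.1 and 0 medially and 15.5, 107 and 6.6 laterally (-1.83 ± 1.19, adjusted p = 0.416), with those libraries at the same ends. The Zic genes ran the other way. Zic1 was 28.2, 23.7 and 76.4 medially and 15.1, 9.27 and 133 laterally (0.45 ± 0.87, adjusted p = 0.816) and Zic2 12.6, 21.9 and 46.6 medially and 6.14, 1.53 and 72.2 laterally (1.16 ± 1.06, adjusted p = 0.577), highest in lateral replicate 3, then medial replicate 3, and lowest in lateral replicate 2. None of the 5 Zic genes and none of the 8 POU domain genes tested passed (4.63% of all genes in either direction). Nor did they when any single library was left out. By the same limma fit, 0 Zic and 1 POU genes had an unadjusted p under 0.05, as did 2833 of all 13411 genes. The level at which each slice was cut is not in the labels, and its part in these differences was not tested.

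Of 14 markers of the neighbouring telencephalon and thalamus, 5 were higher (3.97% of all genes) and 0 lower (0.656%), with a median of 1.15. The count was 1 without medial replicate 2 or lateral replicate 2, 2 without medial replicate 1, lateral replicate 1 or ventricular replicate 1 and 3 without medial replicate 3 or lateral replicate 3. It was 6 without ventricular replicate 2 and 7 without ventricular replicate 3 (10.3% of all genes in that fit), and 1 member was lower without lateral replicate 2. The members called included Lef1, Nr2f1 and Neurod6, given beside other lists, and Nkx2-3, at 3.33, 5.59 and 9.82 FPKM medially and 0.071, 0.0687 and 0 FPKM laterally (2.69 ± 0.62, adjusted p = 0.0414), which did not pass without any 1 of the 6 mantle libraries, or without ventricular replicate 1 (adjusted p = 0.065 to 0.146) or with no filter on low values (0.0886).

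Of 15 LIM homeobox and Lmo genes, 3 were higher (3.97% of all genes) and 0 lower (0.656%), with a median of 0.3. When single libraries were left out, 3 or 4 were higher. Besides Lhx6 and Lhx8 the higher member was Lmo1, at 27.8, 33.1 and 28.7 FPKM medially and 2.45, 4.0 and 7.24 FPKM laterally (2.56 ± 0.32, adjusted p = 0.00314). Its relatives overlapped between the zones, Lmo3 at 48, 41.9 and 46.6 medially and 44.8, 70.3 and 41.7 laterally (-0.16 ± 0.25, adjusted p = 0.765) and Lmo4 at 63.3, 56.7 and 76.4 medially and 93, 36.8 and 66.9 laterally (0.08 ± 0.3, adjusted p = 0.906). Of 21 nuclear hormone receptors, 2 were higher (3.97% of all genes) and 0 lower (0.656%), with a median of 0.35. Leaving out medial replicate 2 or lateral replicate 2 left 0 higher, any 1 other mantle library left 1, and without ventricular replicate 2 there was 1 lower. Nr2f1, COUP-TFI, was 217, 247 and 203 medially and 119, 96.1 and 95.6 laterally (1.1 ± 0.18, adjusted p = 0.00985) and did not pass without medial replicate 2, or without lateral replicate 2 (adjusted p = 0.0539 to 0.0586). Rara, a retinoic acid receptor, was 10.6, 9.02 and 11.5 medially and 4.15, 4.45 and 2.7 laterally (1.27 ± 0.27, adjusted p = 0.0285) and did not pass without any 1 of the 6 mantle libraries (adjusted p = 0.0827 to 0.116) or under 2 of the 12 other alternatives (0.051 to 0.0575). The thyroid hormone receptor Thra was lower in each medial library at 239, 219 and 183 medially and 349, 296 and 349 laterally without passing (-0.63 ± 0.23, adjusted p = 0.149), and it passed without ventricular replicate 2 (adjusted p = 0.0392).

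**Figure D4:**
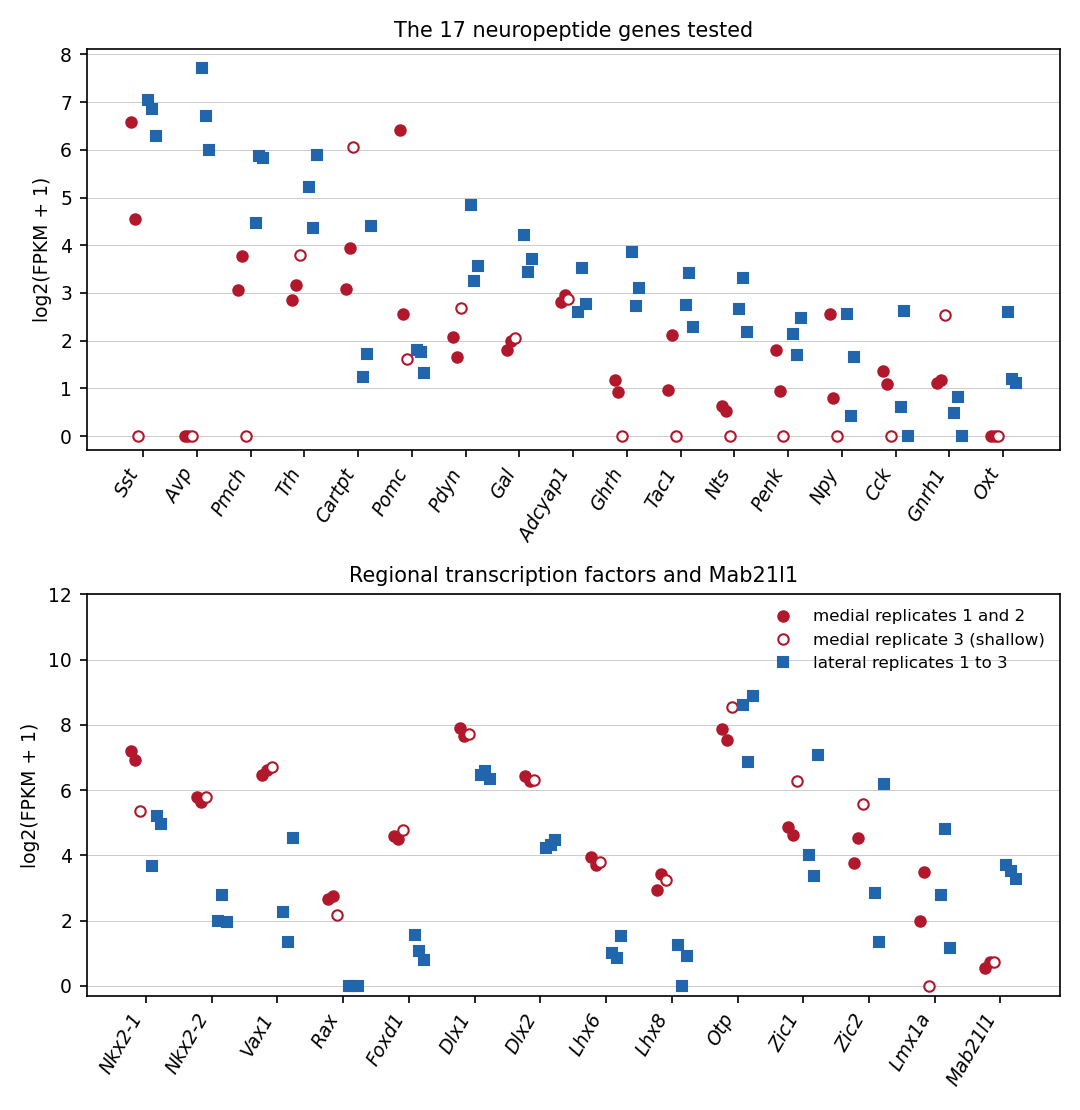
Level, log2(FPKM + 1), of the 17 neuropeptide genes tested (upper panel) and of 13 regional transcription factors and Mab21l1 (lower panel), 1 point per library. Circles are medial libraries, open for the shallow replicate 3, and squares are lateral libraries. Avp is at 0 in every medial library, and the lateral values of Zic1, Zic2 and Lmx1a spread across the medial ones.

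Several factors of inhibitory fate were higher medially, while Gad1 overlapped between the zones. Of 16 GABAergic genes tested, 6 were higher (3.97% of all genes) and 0 lower (0.656%), with a median of 1.15. The count was 4 without any 1 of the mantle libraries and 8 without ventricular replicate 2 or 3. Dlx1 was 236, 202 and 211 FPKM medially and 87, 94.1 and 80.4 FPKM laterally (1.3 ± 0.14, adjusted p = 0.00224). Dlx2, its neighbour on the chromosome, was 86, 77.4 and 79 medially and 17.5, 18.9 and 21.4 laterally (2.02 ± 0.31, adjusted p = 0.00724). Both are homeodomain factors that set the fate of forebrain inhibitory neurons, and both passed under all alternatives. Their ventricular values were 96.6, 82.7 and 105 FPKM for Dlx1 and 37.5, 26.4 and 73.1 FPKM for Dlx2. Dlx5 was 37.4, 26.7 and 27.6 medially and 14.2, 10.4 and 13.7 laterally (1.2 ± 0.28, adjusted p = 0.0434) and did not pass without any 1 of the 6 mantle libraries (adjusted p = 0.0987 to 0.184) or under 4 of the 12 other alternatives (0.0507 to 0.0718). Gad1, the enzyme that makes GABA, was 37.5, 39.1 and 22.6 medially and 33.9, 39.4 and 36.4 laterally and overlapped (-0.18 ± 0.25, adjusted p = 0.734).

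Genes listed as glutamatergic had a median below 0. The list holds glutamate receptor subunits, some shared with the transmitter receptor list, so it does not single out excitatory neurons. Of 13 glutamatergic genes, 1 was higher and 1 lower medially, against 3.97% and 0.656% of all genes, with a median of -0.69. Slc1a1, a glutamate transporter of neurons, was 1.7, 0.442 and 0.958 FPKM medially and 5.77, 6.73 and 6.32 FPKM laterally (-1.88 ± 0.46, adjusted p = 0.0499) and did not pass without any 1 of the 6 mantle libraries, or without ventricular replicate 1 (adjusted p = 0.0768 to 0.186) or under 5 of the 11 other alternatives (0.0535 to 0.238). The higher member was Neurod6, a bHLH factor, at 5.16, 2.41 and 2.62 medially and 0.695, 0.739 and 0.423 laterally (1.39 ± 0.3, adjusted p = 0.0315), which did not pass without any 1 of the 6 mantle libraries, or without ventricular replicate 1 (adjusted p = 0.0555 to 0.119) or with no filter on low values (0.0766). Without ventricular replicate 3, 4 of the list were lower, and without ventricular replicate 2, 2 were. Of 7 monoamine genes, 1 was higher (3.97% of all genes). It was Slc18a2, the vesicular monoamine transporter, at 12.8, 20.3 and 18.2 medially and 1.63, 2.46 and 3.17 laterally (2.41 ± 0.31, adjusted p = 0.00394), which passed under all alternatives. Its ventricular values were 5.68, 7.78 and 3.94 FPKM. Ddc, which makes dopamine and serotonin from their precursors, was 22, 22.9 and 30.2 medially and 5.47, 9.34 and 14.8 laterally with no overlap (1.34 ± 0.61, adjusted p = 0.242) and passed without ventricular replicate 3 (adjusted p = 0.0302). Th, tyrosine hydroxylase, overlapped at 18.8, 13.3 and 10.4 medially and 11.3, 7.26 and 12.6 laterally (0.41 ± 0.55, adjusted p = 0.72). In the count without ventricular replicate 3, 3 monoamine genes were higher.

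Among the 40 lists with at least 5 tested members, neuropeptide genes had the lowest median. Of 31 listed, 17 met the level filter, 5 were lower medially (0.656% of all genes) and 0 higher (3.97%), with a median of -1.75. The count lower was 2 to 6 when single libraries were left out, with 2 without medial replicate 2 or 3 or lateral replicate 1 or 3 and 3 without medial replicate 1. Avp, the precursor of vasopressin (chromosome 2, 130580620 to 130582554, minus strand), was listed at 0 in all 3 medial libraries and was 210.03, 104 and 63 FPKM laterally (adjusted p = 0.000273), and it passed under all 21 alternatives. Its ventricular values were 0.399, 0 and 0 FPKM. Nts, neurotensin, was 0.539, 0.434 and 0 FPKM medially and 5.35, 8.89 and 3.55 FPKM laterally (-2.34 ± 0.36, adjusted p = 0.00787) and passed in 19 of the 20 alternatives that tested it, all but the one with a pseudocount of 0.1 (0.0604). Ghrh, the releasing hormone for growth hormone, was 1.25, 0.894 and 0 medially and 13.6, 5.62 and 7.66 laterally (-2.54 ± 0.46, adjusted p = 0.0151) and did not pass without medial replicate 2 or 3, or without lateral replicate 1 or 3 (adjusted p = 0.0528 to 0.0742) or with a pseudocount of 0.1 (0.114). Trh, the releasing hormone for thyrotropin, was 6.24, 8.01 and 12.8 medially and 36.5, 19.7 and 58.5 laterally (-1.89 ± 0.42, adjusted p = 0.0362) and did not pass without any 1 medial library, lateral replicate 1 or 3, or without ventricular replicate 1 (adjusted p = 0.0559 to 0.143) or under 3 of the 12 other alternatives (0.0573 to 0.193). Gal, galanin, was 2.52, 2.98 and 3.16 medially and 17.6, 9.88 and 12.1 laterally (-1.83 ± 0.37, adjusted p = 0.0232) and did not pass without any 1 of the 6 mantle libraries (adjusted p = 0.0663 to 0.116) or under 3 of the 12 other alternatives (0.057 to 0.244). For all 5 the highest medial library lay below the lowest lateral one.

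Other peptides did not pass, some with large differences between libraries of 1 zone. Pmch, the precursor of melanin-concentrating hormone and a marker of the lateral hypothalamic area, was 7.31, 12.7 and 0 FPKM medially and 21.2, 57.3 and 56.1 FPKM laterally (-3.12 ± 0.92, adjusted p = 0.0929), lower in every medial library. Without the shallow library, which lists it at 0, its difference was -1.98 (adjusted p = 0.191). Sst, somatostatin, was 94.7, 22.4 and 0 medially and 132, 114 and 77 laterally (-3.02 ± 1.67, adjusted p = 0.331), and without medial replicate 3 its difference was -1.17. Cartpt, a peptide of arcuate and lateral neurons, ran opposite at 7.54, 14.3 and 66 medially and 1.37, 2.28 and 20.1 laterally (1.91 ± 0.91, adjusted p = 0.264), with a single high value in each zone. A 0 in the shallow library stands for fewer than about 1 fragment, worth 0.927 FPKM on a 2 kb transcript and more on a shorter one. It may also be a failed estimate, so these values are uncertain.

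Of 15 granin and peptide processing genes, 0 were higher and 0 lower (4.63% of all genes in either direction), 7 had their medial libraries below the lateral ones (15.3% of all genes), and the median was -0.43. By the same limma fit, 2 of them had an unadjusted p under 0.05 (2833 of all 13411 genes), and 1 was higher without ventricular replicate 3. Pcsk1n, an inhibitor of a prohormone convertase, was 142, 119 and 56.6 FPKM medially and 184, 158 and 172 FPKM laterally (-0.79 ± 0.46, adjusted p = 0.357). Scg5, a chaperone of another convertase, was 114, 98.4 and 98.2 medially and 151, 127 and 114 laterally (-0.32 ± 0.21, adjusted p = 0.421). Cpe, carboxypeptidase E, was 337, 234 and 193 medially and 355, 301 and 303 laterally (-0.36 ± 0.21, adjusted p = 0.354).

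Genes of mature neurons had lower values in most medial libraries. Of 23 pan-neuronal genes, 1 was lower (0.656% of all genes) and 0 higher, 17 had medial libraries all below the lateral ones (15.3% of all genes), and the median was -0.58. That member was Rbfox3, the NeuN antigen, at 21.3, 23.1 and 16.8 FPKM medially and 33.5, 36.8 and 37.5 FPKM laterally (-0.8 ± 0.17, adjusted p = 0.0336), which did not pass without any 1 of the 6 mantle libraries, or without ventricular replicate 1 (adjusted p = 0.0546 to 0.146) or under 2 of the 12 other alternatives (0.0538 to 0.0559). Without ventricular replicate 2, 3 members were lower, and without ventricular replicate 3, 2 were. Stmn2, a microtubule regulator of growing axons, was 334, 271 and 292 medially and 495, 498 and 432 laterally (-0.67 ± 0.42, adjusted p = 0.403). Uchl1, a ubiquitin hydrolase of neurons, was 532, 464 and 446 medially and 759.6, 781 and 665 laterally (-0.61 ± 0.28, adjusted p = 0.248) and passed without ventricular replicate 2 (adjusted p = 0.0412). The summed level of the list was 3382, 2966 and 2929.6 FPKM medially, 4715, 4528 and 4179 laterally and 1371, 2949 and 1076 in the ventricular zone. With the 6 mantle libraries alone, 11 of the list were lower (5.68% of all genes in that fit).

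Of 21 synaptic vesicle and SNARE genes, 0 were higher and 0 lower in the 9-library fit (4.63% of all genes in either direction). By that limma fit, 6 of them had an unadjusted p under 0.05 (2833 of all 13411 genes). For 14 the medial libraries were all below the lateral ones (15.3% of all genes), with a median of -0.59. The count lower was 6 without ventricular replicate 2, 4 without ventricular replicate 3 (3.39% of all genes in that fit) and 11 with the 6 mantle libraries alone (5.68%), and 1 was higher without ventricular replicate 2 or 3. Rab3a, a vesicle GTPase, was 111, 93.1 and 104 FPKM medially and 179, 163 and 152 FPKM laterally (-0.67 ± 0.34, adjusted p = 0.297). Vamp2, the vesicle SNARE, was 81.8, 81.7 and 75.7 medially and 108, 141 and 114 laterally (-0.58 ± 0.17, adjusted p = 0.0891) and passed without ventricular replicate 2 or 3 (adjusted p = 0.0331 to 0.0468). Of 22 voltage-gated channel genes, 1 was lower (0.656% of all genes) and 0 higher, with a median of -0.53. Without ventricular replicate 2 or 3, 4 were lower. The member called in the 9-library fit was Kcnd2, a subunit of A-type potassium channels, at 4.32, 3.27 and 2.44 medially and 9.11, 8.87 and 9.62 laterally (-1.25 ± 0.29, adjusted p = 0.0406). It did not pass without any 1 of the 6 mantle libraries, or without ventricular replicate 1 (adjusted p = 0.0652 to 0.154) or under 5 of the 12 other alternatives (0.0516 to 0.0975).

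Of 24 transmitter receptor genes, 2 were lower medially (0.656% of all genes) and 0 higher, with a median of -0.87 and 17 with medial libraries all below the lateral ones (15.3% of all genes). The count was 6 without ventricular replicate 2, 7 without ventricular replicate 3 and 1 without any 1 of medial replicates 2 and 3 and lateral replicates 1 to 3. Grm5, a metabotropic glutamate receptor, was 1.34, 0.657 and 0.526 FPKM medially and 6.97, 16.9 and 6.84 FPKM laterally (-2.52 ± 0.41, adjusted p = 0.00909) and did not pass with a pseudocount of 0.1 (0.069) or with genes filtered at a mean of 5 FPKM (0.0526). Ntrk2, the receptor for brain-derived neurotrophic factor, was 7.44, 5.33 and 3.31 medially and 16.5, 15.5 and 12.2 laterally (-1.35 ± 0.31, adjusted p = 0.0401) and did not pass without medial replicate 2 or 3, or without any 1 lateral library (adjusted p = 0.0878 to 0.166) or under 2 of the 12 other alternatives (0.0534 to 0.0704). Gria1, a subunit of AMPA receptors, was 14, 13.6 and 23.8 medially and 40.8, 26.6 and 44.8 laterally (-1.09 ± 0.42, adjusted p = 0.18), lower in each medial library. The ventricular values of Gria1 were 1.65, 4.49 and 0.688 FPKM. Chrnb2, a nicotinic receptor subunit, overlapped at 33.8, 28.5 and 31.7 medially and 31.9, 31.5 and 34.7 laterally (-0.06 ± 0.21, adjusted p = 0.9).

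**Figure D5:**
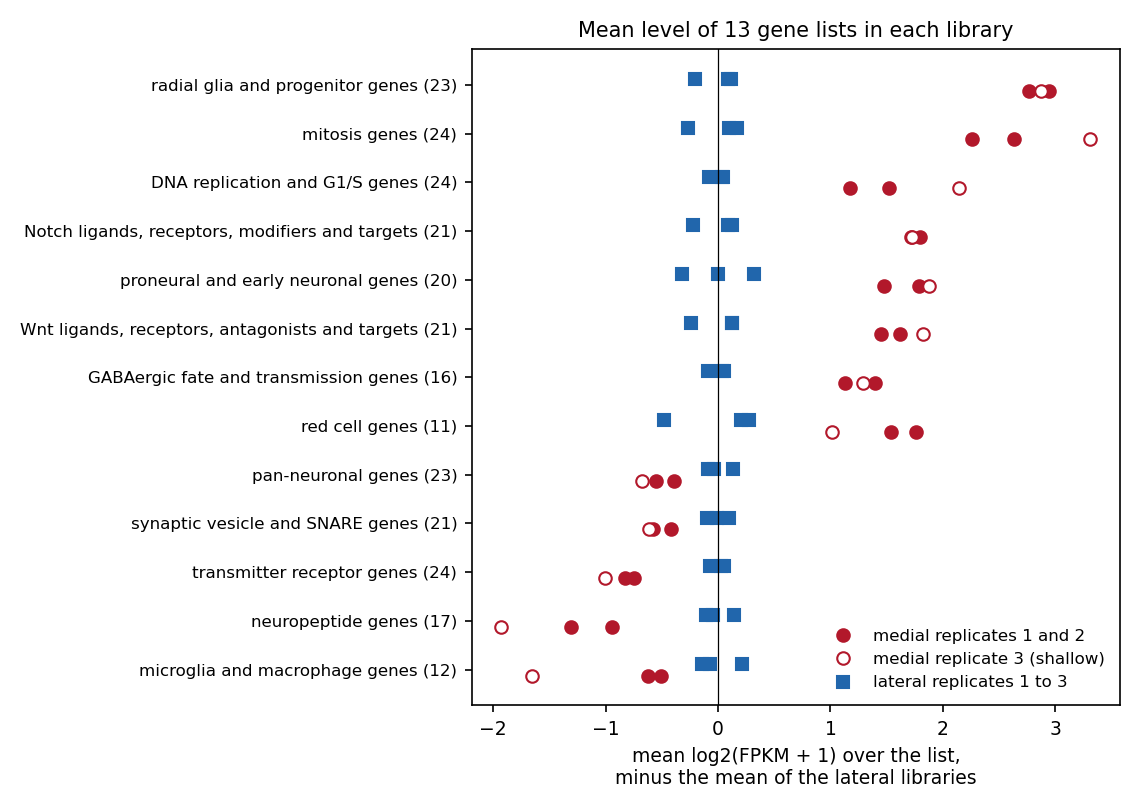
Mean log2(FPKM + 1) over the tested members of 13 lists in each mantle library, minus the mean of the 3 lateral libraries (x axis), with the number of members in brackets. Circles are medial libraries, open for the shallow replicate 3, and squares are lateral libraries. In all lists shown but the radial glia, Notch, GABAergic and red cell lists, the shallow library lies furthest from the lateral ones. For each list shown the medial and lateral libraries do not overlap.

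Axon guidance genes were mixed. Of 18 Slit, Robo and netrin genes, 2 were higher (3.97% of all genes) and 0 lower (0.656%), with 2 or 3 higher when single libraries were left out. Robo3, the receptor that lets commissural axons cross the midline, was 49.4, 28.5 and 31.3 FPKM medially and 1.14, 1.57 and 0.905 FPKM laterally (4.05 ± 0.38, adjusted p = 0.00142). Its ventricular values were 49.9, 81.3 and 26.1 FPKM. Ntn1, netrin-1, an attractant of the ventral midline, was 34.3, 34.9 and 17.8 medially and 3.98, 5.26 and 6.31 laterally (2.24 ± 0.32, adjusted p = 0.00609). Robo2, a receptor of longitudinal axons, was 25.2, 15.9 and 10.6 medially and 37.6, 95.7 and 25 laterally and overlapped (-1.41 ± 0.55, adjusted p = 0.179). Of 23 semaphorin, plexin and neuropilin genes, 1 was higher (3.97% of all genes) and 0 lower (0.656%), with 1 lower without ventricular replicate 2. The higher one was Sema5b, at 35.1, 31.7 and 51 medially and 21.7, 13.5 and 15.5 laterally (1.17 ± 0.27, adjusted p = 0.0424), which did not pass without any 1 of the 6 mantle libraries, or without ventricular replicate 1 (adjusted p = 0.0623 to 0.179) or under 3 of the 12 other alternatives (0.0603 to 0.0748).

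Of 20 Eph receptor and ephrin genes, 3 were higher (3.97% of all genes) and 1 lower medially (0.656%). The count higher was 6 without ventricular replicate 3, 2 without ventricular replicate 1, 1 without medial replicate 3 or lateral replicate 3 and 0 without each of the other 4 mantle libraries. The 3 higher members were of the B class. Ephb3 was 11.7, 11.7 and 8.41 FPKM medially and 4.0, 3.85 and 3.87 FPKM laterally (1.23 ± 0.26, adjusted p = 0.0278) and did not pass without medial replicate 1 or 2, or without any 1 lateral library (adjusted p = 0.0946 to 0.113). The ligand Efnb1 was 28.5, 25.5 and 19.2 medially and 7.81, 6.69 and 13.2 laterally (1.35 ± 0.3, adjusted p = 0.0369) and did not pass without any 1 medial library, or without lateral replicate 1 or 2 (adjusted p = 0.0654 to 0.164) or with no filter on low values (0.0678). Ephb4 was 4.61, 3.35 and 3.42 medially and 1.0, 0.25 and 1.32 laterally (1.4 ± 0.31, adjusted p = 0.0349) and did not pass without any 1 of the 6 mantle libraries, or without ventricular replicate 1 (adjusted p = 0.0556 to 0.153) or under 3 of the 11 other alternatives (0.0501 to 0.0834). The lower member was of the A class, Epha5, at 12.3, 7.55 and 11.6 medially and 29.8, 26.6 and 28.9 laterally (-1.38 ± 0.31, adjusted p = 0.0349), which did not pass without any 1 of the 6 mantle libraries, or without ventricular replicate 1 (adjusted p = 0.0561 to 0.143) or under 2 of the 12 other alternatives (0.0543 to 0.0623). Another B-class receptor, Ephb1, overlapped at 41.8, 30.5 and 25.7 medially and 22.2, 30.8 and 15.8 laterally (0.51 ± 0.27, adjusted p = 0.309). Cadherins bind like cells to like. Of 20 tested, 2 were higher (3.97% of all genes) and 1 lower (0.656%). Leaving out medial replicate 1, 2 or 3 or lateral replicate 3 left 0 in either direction. Cdh6 was 5.91, 6.63 and 7.75 medially and 1.29, 2.27 and 1.11 laterally (1.62 ± 0.31, adjusted p = 0.0175) and did not pass without any 1 medial library, or without lateral replicate 1 or 3 (adjusted p = 0.0532 to 0.0869). Cdh11 was 18, 19.7 and 26.2 medially and 12.2, 7.39 and 7.55 laterally (1.17 ± 0.25, adjusted p = 0.0336) and did not pass without any 1 medial library, lateral replicate 2 or 3, or without ventricular replicate 1 (adjusted p = 0.0541 to 0.152) or under 2 of the 12 other alternatives (0.0504 to 0.0545). Cdh9 was 0.0883, 0.332 and 0 medially and 3.93, 1.84 and 1.85 laterally (-1.59 ± 0.32, adjusted p = 0.0218) and did not pass without any 1 of the 6 mantle libraries (adjusted p = 0.0559 to 0.0999) or with a pseudocount of 0.1 (0.0872). N-cadherin, Cdh2, did not pass at 96.7, 90.6 and 99.5 medially and 86.8, 71.8 and 83.3 laterally (0.25 ± 0.15, adjusted p = 0.391).

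Imprinted genes, which are read from 1 parental copy and many of which act on growth, were partly higher. Of 25 tested, 5 were higher (3.97% of all genes) and 0 lower (0.656%), with a median of 0.42. Without medial replicate 3 or lateral replicate 2 or 3, 3 were higher. Without ventricular replicate 2, 1 was lower. Mest, a growth-related hydrolase, was 228, 242 and 274 FPKM medially and 85.7, 41 and 65.1 FPKM laterally (2.0 ± 0.24, adjusted p = 0.00293). Plagl1, a zinc finger factor of the imprinted gene network, was 53.7, 55.5 and 54.8 medially and 16.3, 14.2 and 22.1 laterally (1.61 ± 0.23, adjusted p = 0.00571). Both passed under all alternatives, as did Cdkn1c above. Grb10, an adaptor that restrains insulin signalling, was 50.8, 49.3 and 68.4 medially and 17.7, 9.92 and 11.3 laterally (2.06 ± 0.36, adjusted p = 0.0127) and did not pass without medial replicate 3, or without lateral replicate 2 or 3 (adjusted p = 0.0528 to 0.0691). The noncoding RNA H19 was 20.7, 15.6 and 29.8 medially and 7.5, 4.17 and 7.55 laterally (1.63 ± 0.33, adjusted p = 0.0246) and did not pass without medial replicate 1 or 3, or without any 1 lateral library (adjusted p = 0.0589 to 0.111). Nnat, neuronatin, the most abundant member, was 5565, 4831 and 5133 medially and 7792, 5339.8 and 7768 laterally and overlapped (-0.41 ± 0.22, adjusted p = 0.312). So did Ndn, necdin, at 1053, 837 and 839 medially and 1438, 937 and 1272 laterally (-0.4 ± 0.49, adjusted p = 0.689).

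Of 22 glycolysis and hypoxia genes, 0 were higher and 0 lower (4.63% of all genes in either direction). By the same limma fit, 6 of them had an unadjusted p under 0.05 (2833 of all 13411 genes). Without ventricular replicate 3, 4 were higher and 1 lower. Gapdh was 523, 492 and 417 FPKM medially and 416, 451 and 363 FPKM laterally (0.22 ± 0.2, adjusted p = 0.576). Pkm, pyruvate kinase, was 483, 495 and 426 medially and 327, 319.6 and 339 laterally with no overlap (0.51 ± 0.13, adjusted p = 0.0616) and passed without ventricular replicate 3 (adjusted p = 0.0243). Of 21 cholesterol synthesis genes, 2 were higher (3.97% of all genes) and 0 lower, with 14 higher in every medial library (25.9% of all genes) and a median of 0.47. Leaving out any 1 mantle library left 0 or 1, and leaving out ventricular replicate 3 gave 8. Lss, lanosterol synthase, was 33.5, 25.4 and 33 medially and 15.4, 16.1 and 11.1 laterally (1.06 ± 0.21, adjusted p = 0.0202) and did not pass without medial replicate 1 or 3, or without any 1 lateral library (adjusted p = 0.0586 to 0.0827). Insig1, the regulator of sterol sensing, was 24.1, 21.8 and 23.3 medially and 12, 11.9 and 12 laterally (0.89 ± 0.17, adjusted p = 0.0179) and did not pass without any 1 of the 6 mantle libraries (adjusted p = 0.0521 to 0.0838). Among 17 immediate early and heat shock genes, 2 were higher (3.97% of all genes) and 0 lower, the first being Btg2, given above. The other, Hspa5, a chaperone of the endoplasmic reticulum, was 182, 221 and 206 medially and 94.3, 100.4 and 93.9 laterally (1.06 ± 0.2, adjusted p = 0.0194) and did not pass without medial replicate 2 or 3, or without any 1 lateral library (adjusted p = 0.0718 to 0.0871).

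Red cell genes also differed between the zones. Of 11 red cell genes tested, 6 were higher medially (3.97% of all genes) and 0 lower (0.656%), with a median of 1.65. The summed level of the 11 was 3381, 2931 and 1813 FPKM medially against 845, 483 and 811 laterally. The count of higher members was 1 without medial replicate 2, 3 without medial replicate 1 or lateral replicate 2 and 4 without medial replicate 3. It was 5 or 6 without each of the others, and 1 member was lower without ventricular replicate 2 or 3. The embryonic globin Hbb-y was 1367, 1233 and 819 FPKM medially and 269, 66.3 and 145 FPKM laterally (3.01 ± 0.42, adjusted p = 0.00519) and passed under all alternatives. Hba-x was 198, 178 and 103 medially and 45.7, 9.04 and 23.6 laterally (2.78 ± 0.47, adjusted p = 0.0109) and did not pass without medial replicate 2 (adjusted p = 0.0539). The near-identical adult genes Hba-a1 and Hba-a2, between which fragments cannot be divided with certainty, were 844, 723 and 394 medially and 217, 147 and 242 laterally and 553, 478 and 268 medially and 151, 94.2 and 147 laterally. Hba-a1 passed (adjusted p = 0.0119) but not without medial replicate 2, or without lateral replicate 2 (adjusted p = 0.0584 to 0.0606), and Hba-a2 passed (adjusted p = 0.0137) but not without medial replicate 1 or 2, or without lateral replicate 2 (adjusted p = 0.0533 to 0.0691). The adult Hbb-b1 overlapped at 168, 137 and 93.2 medially and 82.2, 98 and 132 laterally (0.33 ± 0.27, adjusted p = 0.527). Transcripts of red cells thus moved with the zones, and their part in the other differences was not tested.

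Of 18 endothelial genes tested, 0 were higher and 0 lower (4.63% of all genes in either direction). In the limma fit 1 had an unadjusted p under 0.05 (2833 of all 13411 genes). The sums of the list ranged from 55.6 to 137 FPKM medially and 33.0 to 92.3 laterally. Cldn5, the tight junction protein of brain vessels, was 24.1, 15.2 and 9.73 FPKM medially and 19.4, 8.15 and 20.4 FPKM laterally (0.04 ± 0.57, adjusted p = 0.978). All 12 microglia and macrophage genes tested had a lower medial mean, as 5622 of all 13411 genes did, 7 of 12 without overlap (15.3% of all genes). Of the 12, 0 passed (4.63% of all genes in either direction). In the limma fit 5 had an unadjusted p under 0.05 (2833 of all 13411 genes), and 1 was lower without ventricular replicate 3. Csf1r, the receptor that microglia need, was 3.67, 4.56 and 2.82 medially and 8.05, 5.83 and 8.71 laterally (-0.87 ± 0.48, adjusted p = 0.334). The sums of this list were 29.98, 36.7 and 12.6 FPKM medially and 66, 49.96 and 54 laterally. Of 12 pericyte and meningeal genes, 3 were higher (3.97% of all genes) and 0 lower (0.656%). They were Foxd1, Crabp2 and Notch3, given above, and which cells held their transcripts was not tested. Foxd1 was 22.9, 21.5 and 26.5 medially and 1.93, 1.11 and 0.732 laterally (3.48 ± 0.38, adjusted p = 0.00224). Crabp2 was 24.5, 30.5 and 76.9 medially and 6.71, 4.54 and 9.96 laterally (2.35 ± 0.52, adjusted p = 0.0349). The Crabp2 call ended without any 1 of the 6 mantle libraries, or without ventricular replicate 1 (adjusted p = 0.0504 to 0.154) or under 3 of the 12 other alternatives (0.0529 to 0.075). Pdgfrb, a defining pericyte receptor, overlapped at 5.29, 3.88 and 1.99 medially and 3.13, 0.737 and 2.6 laterally (0.61 ± 0.4, adjusted p = 0.424). Of 5 oligodendrocyte precursor genes tested, 2 were higher (3.97% of all genes), Olig2 and Nkx2-2, given above. Olig1, a relative of Olig2, overlapped at 4.78, 0.651 and 1.73 medially and 3.79, 1.53 and 2.72 laterally. Of the lists for choroid plexus with pituitary primordium and for cranial ganglia, 2 members each met the level filter and none passed in the limma fit. Of these 4, 1 had an unadjusted p under 0.05 in that fit (2833 of all 13411 genes). It was Sncg, a synuclein of sensory ganglia, at 5.79, 7.29 and 7.56 medially and 19.8, 16.9 and 15.8 laterally (-1.23 ± 0.37, adjusted p = 0.099). Sncg passed without ventricular replicate 2 or 3 (adjusted p = 0.0211 to 0.0277).

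Transcripts of the mitochondrial genome made up a smaller share of the medial libraries. The 13 mitochondrial mRNAs held 4.57%, 4.97% and 7.84% of all FPKM medially and 7.39%, 7.93% and 9.46% laterally, with the shallow medial library inside the lateral range. The 2 mitochondrial ribosomal RNAs, named here because of their values, were both lower medially. mt-Rnr1 was 108, 139.8 and 228 FPKM medially and 469, 539 and 544 laterally (-1.77 ± 0.36, adjusted p = 0.0238), and mt-Rnr2 was 170.2, 189 and 259.8 FPKM medially and 430.2, 542 and 511 laterally (-1.27 ± 0.23, adjusted p = 0.0146). Both calls ended without medial replicate 1 or 2 or lateral replicate 2 or 3, and that of mt-Rnr1 also without lateral replicate 1, at adjusted p = 0.0791 to 0.103 for mt-Rnr1 and 0.0601 to 0.077 for mt-Rnr2.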

How the data were processed

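RNA-seq libraries of 3 zones (3 each) of the hypothalamus were compared. The authors deposited 1 table of FPKM by gene symbol. Per the labels' protocols, libraries were read as 100 bp paired reads. Per the submitters' processing notes, Bowtie2 2.1.0 and the mm10 genome were used. The program that computed FPKM was not given in the sources used here.

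Of 38370 rows, 42 were identical copies and 133 repeated a symbol already present at a higher mean, and without them 38195 symbols stood. Of these, 34293 matched GENCODE M21 annotation (GRCm38), the source of coordinates. FPKM carry no read counts, so no count model was used, and depth was read from the steps between low values. Genes that reached 1 FPKM in 3 or more of the 6 mantle libraries were fitted as log2(FPKM + 1) with limma 3.58.1 (R 4.3.3) over all 9 libraries, with moderated variances and an intensity trend, and the medial minus lateral contrast was tested with Benjamini-Hochberg adjustment at 0.05. No covariate was used. An exact permutation test of 3 against 3 libraries cannot go below 0.10 and was not used.

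The comparison and the 42 gene lists (806 symbols) were chosen with earlier results of these data known. Genes named are the 12 highest and 12 lowest past the threshold with no overlap between zones, 5 FPKM or more on average in the higher zone and no predicted-gene name. To these were added, per list, up to 6 members past the threshold by size and up to 3 not past it by level, and Cenpj. The text gives a selection of these, and some are not reported here. On simulated data (13411 genes, 200 changed, 10 runs), 48.8% of changes of 1 and 98.7% of changes of 2 on the log2 scale were recovered with 4.87% false calls under equal noise. Under each library's own noise, 41.7% and 98.5% were recovered with 0.067% false calls. Changed genes were drawn from those with a mean log2(FPKM + 1) above 2, with normally distributed noise and no other difference between zones. Recovery of changes in genes at lower levels was not simulated. In all, 21 alternatives were tried. Deviations from the zone mean correlated at 0.018, 0.239 and 0.128 between same-numbered medial and lateral libraries. Between differently numbered ones the correlations ran from -0.215 to 0.012, all below the same-numbered values. Deviations from a zone mean cancel out within the zone, so these correlations are not independent of each other. The reported fit did not pair the libraries, and whether equal numbers share a source was not tested. A fit with a replicate block called 735 genes. Promoter sequences are from RefSeq (GRCm38.p6).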

Additional observations from a re-analysis of the deposited data

How the results depend on the processing

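The counts of genes past the limma threshold, 621 in all with 533 higher and 88 lower, moved by more than 1.5 times under several alternatives. Array weights gave 3636 (2388 higher, 1248 lower), the mantle zones alone 2069 (1307 and 762) and the 7 deep libraries, an alternative chosen after seeing the data, 1659 (1276 and 383). Having no filter on low values gave 350 higher among more genes tested. Fewer were lower with a pseudocount of 0.1 (28) and with a mean level of 5 FPKM required (35), and more after quantile normalization (315). Leaving out 1 library at a time gave 213 to 1832 genes in all, 194 to 1377 higher and 14 to 455 lower, with the highest counts without ventricular replicate 3. The fit with a replicate block called 735 genes, 616 higher and 119 lower. In every alternative more genes were higher than lower. Of the 114 genes named in the text that passed, 59 passed under every alternative that tested them, and none changed direction. Of the 57 that did not pass, 10 changed sign under at least 1 alternative without passing in either fit. No median of the 40 lists with at least 5 tested members changed sign under the other scalings. Depth limits low values most in medial replicate 3, where 1 fragment on a 2 kb gene is worth 0.927 FPKM. The cause of these shifts was not tested.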
